A study of Mus musculus with 25 samples.

Results

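The set described here holds 463 long non-coding RNAs (lncRNAs, transcripts that are not translated into protein) that were lower in astrocyte-labelled cells of the mouse spinal cord 7 days after a contusion than in cells of sham-operated animals. They were taken from the 21811 lncRNA rows of the table of sorted cells, which lists 43693 genes in all. Read counts were turned into CPM, counts scaled to a library total of 1000000. A lncRNA entered the set if its mean Sham level was at least 2 CPM, if its mean in Sham plus 0.5 was at least 2 times its mean at 7 days plus 0.5, and if its lowest Sham library lay above its highest 7-day library, as it did for 25.9% of lncRNAs at that Sham level. Of 2563 lncRNAs at the Sham level, 803 also met the ratio and 485 met all of these, and 22 of the 485 were left out by name (20 with names ending in "os", which marks antisense genes, together with Malat1 and Meg3). The fall at 7 days is therefore how the members were chosen and is described without a test. All 463 passed edgeR's filter on low counts, which their Sham level alone allows.

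Cells came from GFAP-Cre-/+:R26-tdT-/+ mice, in which Cre driven by the Gfap promoter switches on the red reporter tdTomato in cells that use or once used that promoter. The tdTomato-positive cells were sorted from the digested injury site after myelin removal. Sorted groups were Sham (3 libraries, laminectomy at T9 without contusion, taken at 7 days), 7D (3, contusion of 60 kdyn at T9, 7 days), 1M (3, the same injury at 1 month) and 3M (2, at 3 months). Only the 7D group matches Sham in time after surgery. Whole tissue of the injury epicentre came from C57BL/6 mice at 3 months (3) and 1 month (3). Each of these replicates pooled 3 mice. Cultured astrocytes from brains of C57BL/6 pups of postnatal day 4 to 7 carried a knockdown or a control lentivirus and then went through puromycin selection (1 µg/ml). There were 2 libraries each for Zeb2os knockdown (labelled Zeb2os -/-), its control, Zeb2 knockdown (labelled Zeb2 -/-) and its control. Nothing in the labels says that replicates were separate cultures, so the spread behind each p-value may be technical.

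Total counts per library ran from 15712423 to 50211071 in sorted cells, from 15423131 to 27138885 in tissue, from 45627745 to 158099842 in the Zeb2os cultures and from 29026654 to 65433537 in the Zeb2 cultures. The label astrocyte was checked against markers, none of which were at 0 in any sorted or tissue library for the astrocyte, ependymal and microglia lists. Summed CPM of 15 astrocyte markers was 3039 to 3770.3 in 7D cells and 8450.3 to 10658 in Sham cells, and it was 16593 to 17964 in 1M tissue, and 13 of the 15 were called lower and 1 higher at 7D. Summed CPM of 10 oligodendrocyte precursor markers was 11263 to 12162 in 7D cells, 11059 to 14179.6 in Sham cells and 879 to 888 in 1M tissue, so transcripts of that lineage were abundant in every sorted library. The 12 microglia and macrophage markers summed to 4929 to 7424 in 7D cells and 429 to 1714 in Sham cells, and 8 of the 12 were called higher at 7D. The 10 ependymal markers summed to 439 to 518 in 7D cells and 1487 to 2488 in Sham cells, and 9 of the 10 were called lower at 7D. The 10 endothelial markers summed to 544 to 642 in 7D cells and 62.4 to 202 in Sham cells, and 9 of the 10 were called higher at 7D. The 10 fibroblast and mural markers summed to 3791 to 4042 in 7D cells and 807 to 1589 in Sham cells, and 4 of the 10 were called higher. The 12 neuronal markers summed to 205 to 226 in 7D cells and 249 to 303 in Sham cells, and 4 of the 12 were called lower and 1 higher. A list of 25 genes of mature astrocyte function had 24 members called lower at 7D. Their part in the fall of the lncRNAs was not tested. In bulk RNA, fewer cells of a type and less RNA per cell cannot be told apart.

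LncRNAs act in several known ways. Some stay near the site where they are made and influence neighbouring genes, some are antisense transcripts that overlap the exons of a coding gene on the other strand, and some serve as long precursors from which microRNAs are cut. Many are restricted to a cell type or to a state of the cell. Most members of the set have only a systematic name and no described function.

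Of the members with a known position, 10 span a microRNA hairpin on their own strand. The mature sequences of 6 of these hosts are shown because they are the described products that such transcripts can give, and because 2 of the microRNAs share a seed. They are RefSeq entries on GRCm38.p6, written 5′ to 3′ with the seed (bases 2 to 8, which pair with target messages) in capitals. The microRNAs themselves were not measured here.
miR-9-5p: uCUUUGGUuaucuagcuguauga
let-7c-5p: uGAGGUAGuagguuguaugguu
miR-99a-5p: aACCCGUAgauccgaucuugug
miR-125b-5p: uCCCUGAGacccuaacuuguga
miR-29b-3p: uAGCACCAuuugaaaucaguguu
miR-29c-3p: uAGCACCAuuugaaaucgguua
miR-101a-3p: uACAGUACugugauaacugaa
The miR-9-5p sequence lies in 2 members, Gm3764 at chr3:88215613-88215635 (+) and C130071C03Rik at chr13:83738821-83738843 (+). Mir99ahg spans miR-99a at chr16:77598940-77598961 (+) and let-7c-1 at chr16:77599672-77599693 (+). Gm28119 covers miR-125b-1 at chr9:41581940-41581961 (+). A330023F24Rik carries miR-29b-2 at chr1:195037091-195037113 (+) and miR-29c at chr1:195037600-195037621 (+), whose 3p products share the seed AGCACCA. E130102H24Rik spans miR-101a at chr4:101346957-101346977 (-). The other hosts were Gm3294 (miR-129-1), Snhg20 (miR-6516), Gm2044 (miR-202 and miR-7686) and Gm6145 (miR-6390).

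Both hosts of miR-9, a microRNA known for its role in neural progenitors and in the timing of their differentiation, were lower in every 7D library than in any Sham library, as the rule requires. Gm3764 had 68.0, 65.9 and 52.9 CPM in 7D cells, against 116, 872 and 528 CPM in Sham cells. The 7D libraries lay close together, and Sham replicate 1 lay far below the other Sham libraries. C130071C03Rik, the other host of miR-9 in the set, had 53.4, 40.0 and 34.8 CPM in 7D cells, against 78.5, 108 and 134 CPM in Sham cells. Mir99ahg, the long host of let-7c and miR-99a, had 24.9, 19.7 and 10.7 CPM in 7D cells and 29.1, 71.8 and 96.4 CPM in Sham cells. In all of these the lowest Sham library was replicate 1.

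The other hosts differed in where their 1M libraries lay. A330023F24Rik, host of the miR-29 pair that is known to restrain collagen and other matrix genes, had 0.284, 0.570 and 0.204 CPM in 7D cells and 1.83, 3.59 and 8.02 CPM in Sham cells. At 1M it had 0.411, 0.657 and 1.83 CPM, of which the highest lay level with the lowest Sham library. E130102H24Rik had 0.599, 0.434 and 0.295 CPM in 7D cells and 2.21, 7.23 and 1.46 CPM in Sham cells, and its 1M libraries, at 3.56, 2.99 and 1.803 CPM, all lay above 7D and within the Sham range. Gm28119 had 1.32, 0.950 and 0.818 CPM in 7D cells and 3.77, 5.19 and 2.80 CPM in Sham cells. Gm6145, a transcript of unknown function, had 14.9, 7.90 and 6.52 CPM in 7D cells and 26.6, 159.5 and 88.4 CPM in Sham cells, and it had 7.66, 7.05 and 12.7 CPM at 1M, below every Sham library. Gm3764 at 1M had 123, 116 and 128 CPM, above every 7D library, and it reached the level of Sham replicate 1 only.

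**Figure D1:**
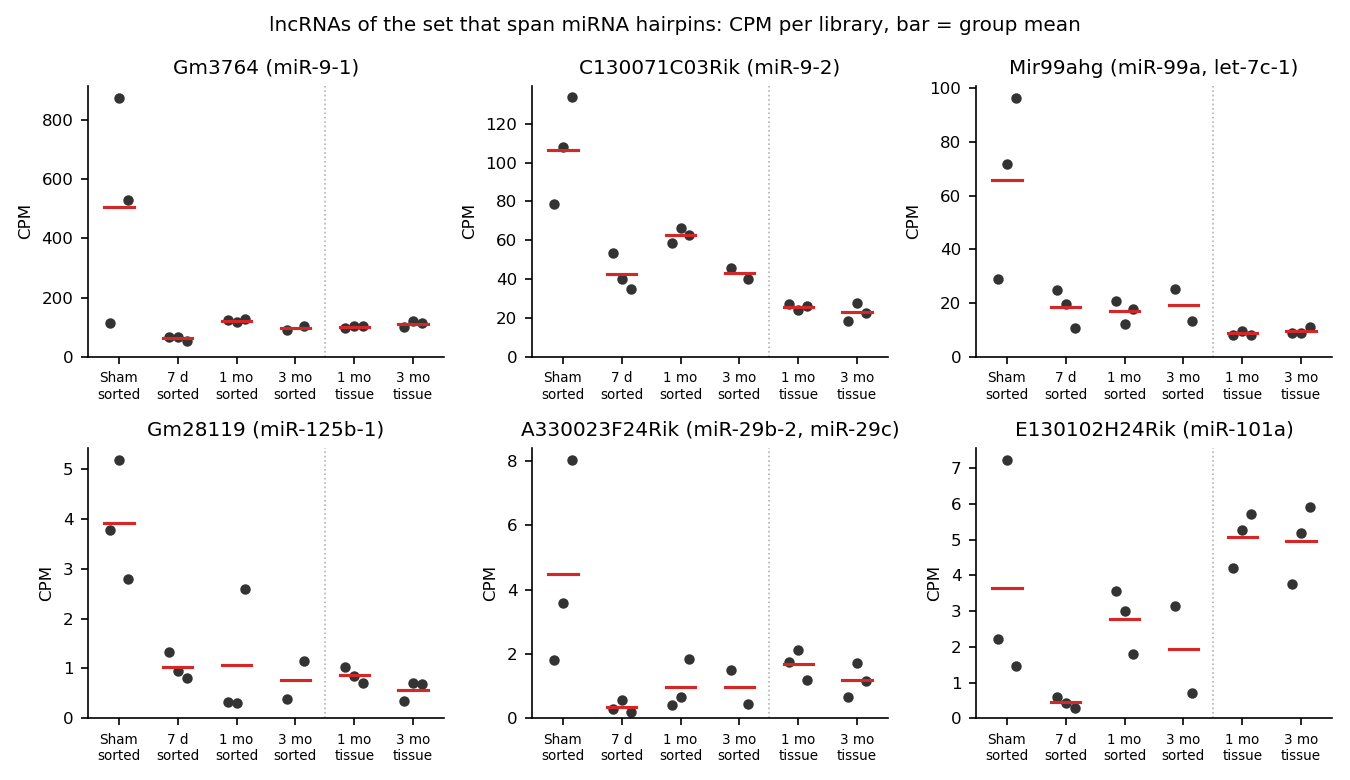
CPM (linear axis from 0) of 6 microRNA hosts of the set in each library of Sham, 7D, 1M and 3M sorted cells and of 1M and 3M tissue. Points are libraries and bars are group means, and every 7D point lies under every Sham point.

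Over the set as a whole, the summed CPM of the 463 members was 2355, 2026 and 1964 in 7D cells, against 5636, 8223 and 7771 in Sham cells. The median member had a 7D mean of 24.6% of its Sham mean, and the middle 50% of members lay between 15.6% and 34.6%. The Sham libraries differed among themselves: replicate 1 was the lowest of the group for 305 members, and the median coefficient of variation of the members was 34.9% at 7D, against 48.3% in Sham, where it was 48.1% over all lncRNA rows at the Sham level. Without Sham replicate 1 the same rule would pick 965 lncRNAs, of which 450 belong to the 463, so the size of the set rests on that library. Its microglia and macrophage markers summed to 1714 CPM, against 562 and 429 CPM in Sham replicates 2 and 3. Members just inside the ratio were Gm20635 (2.00) and 4732491K20Rik (2.00), and Gm33669 (1.97) and Gm32262 (1.97) lay just outside. Gm2061 (2.01 CPM) and LOC108168202 (2.03 CPM) were just above the Sham level, and Gm26935 (1.97 CPM) and Gm38505 (1.96 CPM) just below it. In the fit across all genes, 174 members were called lower and 0 higher at 7D (adjusted p under 0.05, edgeR), 308 were lower and 0 higher at an unadjusted p under 0.05, and DESeq2 called 276. Among all tested lncRNAs 2.94% of rows were called lower and 1.35% higher by edgeR. Over all 24286 genes, DESeq2 called 2643 lower and 2869 higher. Since the rule used this contrast, nothing is read from these counts.

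**Figure D2:**
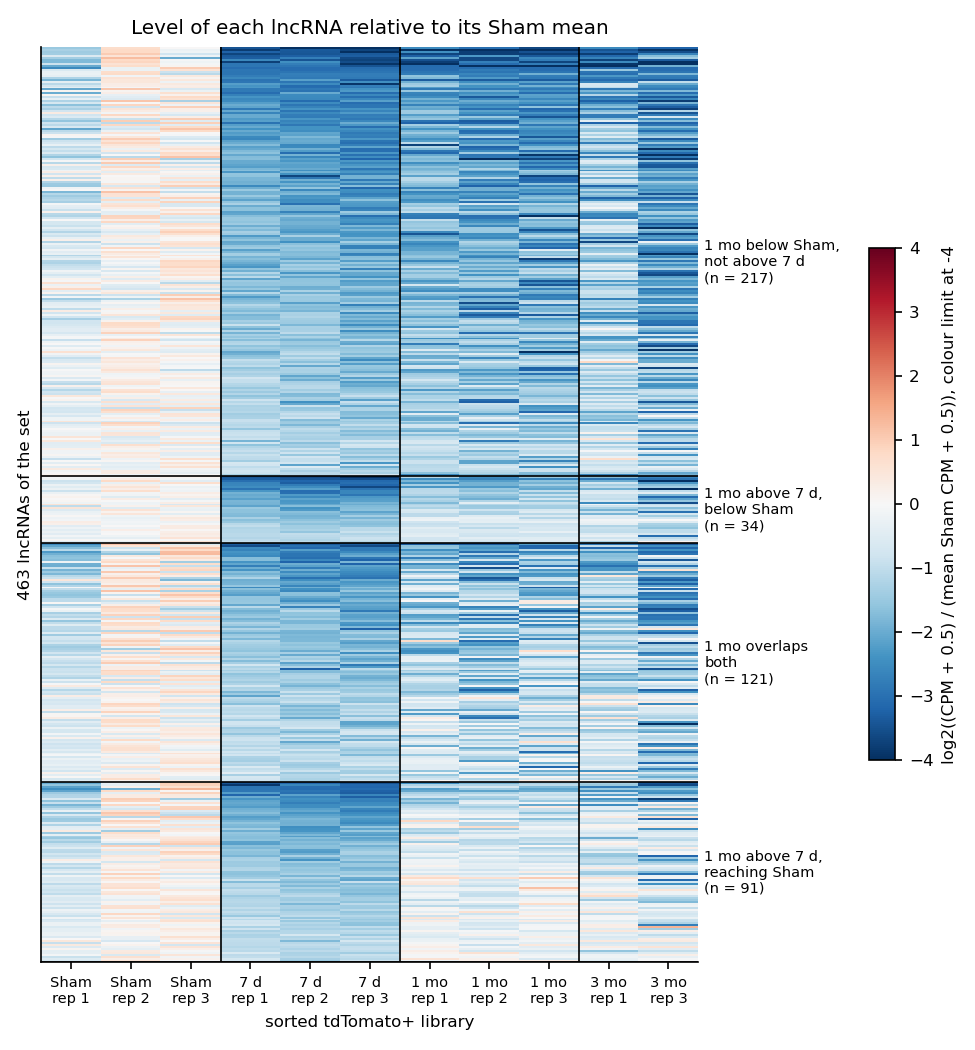
Each row is a lncRNA of the set and each column a sorted library of Sham, 7D, 1M or 3M. Colour gives the log2 ratio of CPM plus 0.5 to the mean Sham CPM plus 0.5, rows are grouped by where the 1M libraries lie, and 217 rows stay below Sham at 1M without rising above 7D.

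The members with the highest Sham level per kb of annotated exon included several that lie antisense to a coding gene. Gm11175, antisense to Jund (a subunit of the AP-1 transcription factor), led with 948 Sham CPM per kb. It had 262, 265 and 313 CPM in 7D cells, against 772, 719 and 1002 CPM in Sham cells. Rows antisense to a coding gene, Gm11175 among them, may hold reads of that gene, as described below. Gm17114, which overlaps Slc6a9, the glial glycine transporter GlyT1, had 249 Sham CPM per kb. It had 12.1, 11.3 and 10.2 CPM in 7D cells and 113, 152 and 117 CPM in Sham cells, and no library stood apart within its group. Gm14493 followed at 205, Gm45774 at 153, Gm14964 at 117 and Gm3764 at 86.9 Sham CPM per kb.

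The members with the largest ratios of Sham to 7D included Gm20713 and Gm26703. Gm20713 overlaps exons of Gpc5 on the other strand, a heparan sulfate proteoglycan enriched in astrocytes. It had 0.473, 0.353 and 0.114 CPM in 7D cells, against 9.04, 9.97 and 10.6 CPM in Sham cells. Gm26703, in an intron of Sparcl1 (hevin, a synapse-organising protein secreted by astrocytes), had 3.75, 3.31 and 1.95 CPM in 7D cells, against 14.4, 68.7 and 34.7 CPM in Sham cells. The Sham libraries of Gm26703 differed widely and those at 7D did not. Gm10425 had 0.631, 1.03 and 0.727 CPM in 7D cells and 5.89, 26.8 and 12.98 CPM in Sham cells. LOC105244170 was at 0, 0 and 0 CPM in 7D cells and at 0.383, 10.7 and 2.99 CPM in Sham cells, where replicate 2 carried most of it. Gm9925, Gm33002, AC135672.1, AC164623.1 and Gm27151 were also among the 10 largest ratios, with Sham means of 18.3, 6.26, 5.11, 6.64 and 4.61 CPM in that order.

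Among members with a known name, Firre, an X-linked lncRNA known for its part in the folding of the nucleus, had 14.9, 11.5 and 5.84 CPM in 7D cells and 15.2, 41.4 and 31.4 CPM in Sham cells. Sham replicate 1 lay just above the highest 7D library of Firre. Snhg20, a host of small nucleolar RNA, had 6.43, 6.11 and 5.91 CPM in 7D cells and 9.89, 24.1 and 27.7 CPM in Sham cells. Mir124-2hg, named as a host of the neuronal miR-124, had 3.91, 3.67 and 3.02 CPM in 7D cells and 14.2, 43.7 and 8.08 CPM in Sham cells. Its highest Sham value was again a single library, replicate 2. The row called Tctn2, whose coding gene belongs to the transition zone of the cilium, is typed lncRNA by the authors and had 37.9, 31.1 and 29.7 CPM in 7D cells and 108, 48.3 and 71.5 CPM in Sham cells. The row T2 is typed lncRNA in the table and protein coding in GENCODE M21. It had 4.26, 2.42 and 3.20 CPM in 7D cells and 14.2, 28.9 and 29.1 CPM in Sham cells.

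Comparisons of 1M and 3M with Sham or with 7D share libraries with the rule, so their values are given side by side and support nothing about the set. The median member stood at 24.6% of its Sham mean at 7D, at 33.9% at 1M and at 34.5% at 3M. All 1M libraries lay below all Sham libraries for 251 members (54.2%, where 17.1% of lncRNAs at the Sham level did), and all 3M libraries did for 284 (61.3%, background 24.1%). All 1M libraries lay above all 7D libraries for 125 members (27.0%, background 20.4%), and all 3M libraries did for 143 (30.9%, background 23.8%). Split by the 1M libraries, 217 members stayed below Sham without rising above 7D, 34 rose above 7D but stayed below Sham, 91 rose above 7D and reached Sham values, and 121 had 1M libraries that overlapped both groups. The rule puts 7D below Sham for every member, which shapes the sizes of these groups. No share over all lncRNAs was counted for them, so nothing is read from the sizes. In edgeR's quasi-likelihood test, 92 members were called lower at 1M than in Sham (1.74% of lncRNA rows) and 66 at 3M (1.36%).

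Gm11175, described above at Sham and 7D, had 716, 626 and 562 CPM at 1M and 757 and 833 CPM at 3M, where every library lay above every 7D library. Of the members, 15 were called higher at 1M than at 7D (0.413% of lncRNA rows) and 0 lower (0.1%), with 81 higher and 5 lower at an unadjusted p under 0.05 and 43 called by DESeq2, and 25 were called higher at 3M than at 7D (0.851%) and 1 lower (0.476%). The one called lower, Gm35614, is named after its values were seen, with 0 and 0 CPM at 3M and 0.820, 0.462 and 0.591 CPM at 7D. Over all 24286 genes, DESeq2 called 784 higher and 727 lower at 1M than at 7D. Among the members that edgeR called higher, Gm11175 was first by p in both comparisons, at log2 changes of 1.14 ± 0.18 at 1M and 1.53 ± 0.19 at 3M over 7D (SE, adjusted p 0.00160 and 9.07e-05). It lies antisense to Jund, and its row may hold reads of Jund, as described below. Immediate early genes, which AP-1 members belong to and which dissociation of tissue is known to induce, also varied between these groups. A list of 21 such genes summed to 15733 to 32010.3 CPM in Sham, 8042 to 8318 at 7D, 17708 to 21200.5 at 1M and 22306 to 22964 at 3M, and 14 of them were called lower at 7D than in Sham. Their part in the values of the members was not tested. Gm17114 had 22.3, 19.5 and 19.7 CPM at 1M and 16.2 and 15.8 CPM at 3M.

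Members of the set lay in all positions relative to coding genes. Of 1219 lncRNAs at the Sham level whose exons overlap coding exons, 132 were members (10.8%), and of 546 that overlap no coding gene, 154 were (28.2%); this is a description of the choice and was not tested. Positions were found for 437 members. Of the 132 members over coding exons, 125 lay on the strand opposite to the coding gene. Another 66 lay within or across introns of a coding gene, and 83 lay over coding exons by their span with their own exons unknown.

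Coding genes next to the members were not used by the rule, although they were counted in the same Sham and 7D libraries and many share a locus with a member, so their calls are not independent of it. Within 100 kb, 362 coding genes that are not members themselves were the nearest neighbour of a member and could be tested. Of the 362, 187 were called lower at 7D than in Sham (51.7%) and 19 higher (5.25%), where 11.2% of all coding genes were called lower and 13.6% higher (edgeR, adjusted over all genes). By position, of 127 coding genes whose exons a member's exons overlap, 94 were called lower (74.0%) and 0 higher. Where only the member's span is known to overlap coding exons, 51 of 77 were lower (66.2%) and 2 higher (2.60%). The same reads may have been counted for both genes of an overlapping pair, as described below. Nothing is therefore read from these shares or from the pooled 51.7%. Of 61 coding genes with a member in or across an intron, 20 were lower and 7 higher. Of 105 coding genes nearest to a member that does not overlap them, 29 were lower (27.6%) and 10 higher (9.52%). A coding gene next to several members can count in more than 1 of these classes. Of 54 coding genes that start within 1 kb of a member on the opposite strand, as in a shared bidirectional promoter, 27 were lower and 3 higher. The 3 higher ones, Ehd1, Hccs and Med14, are named after their values were seen.

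**Figure D3:**
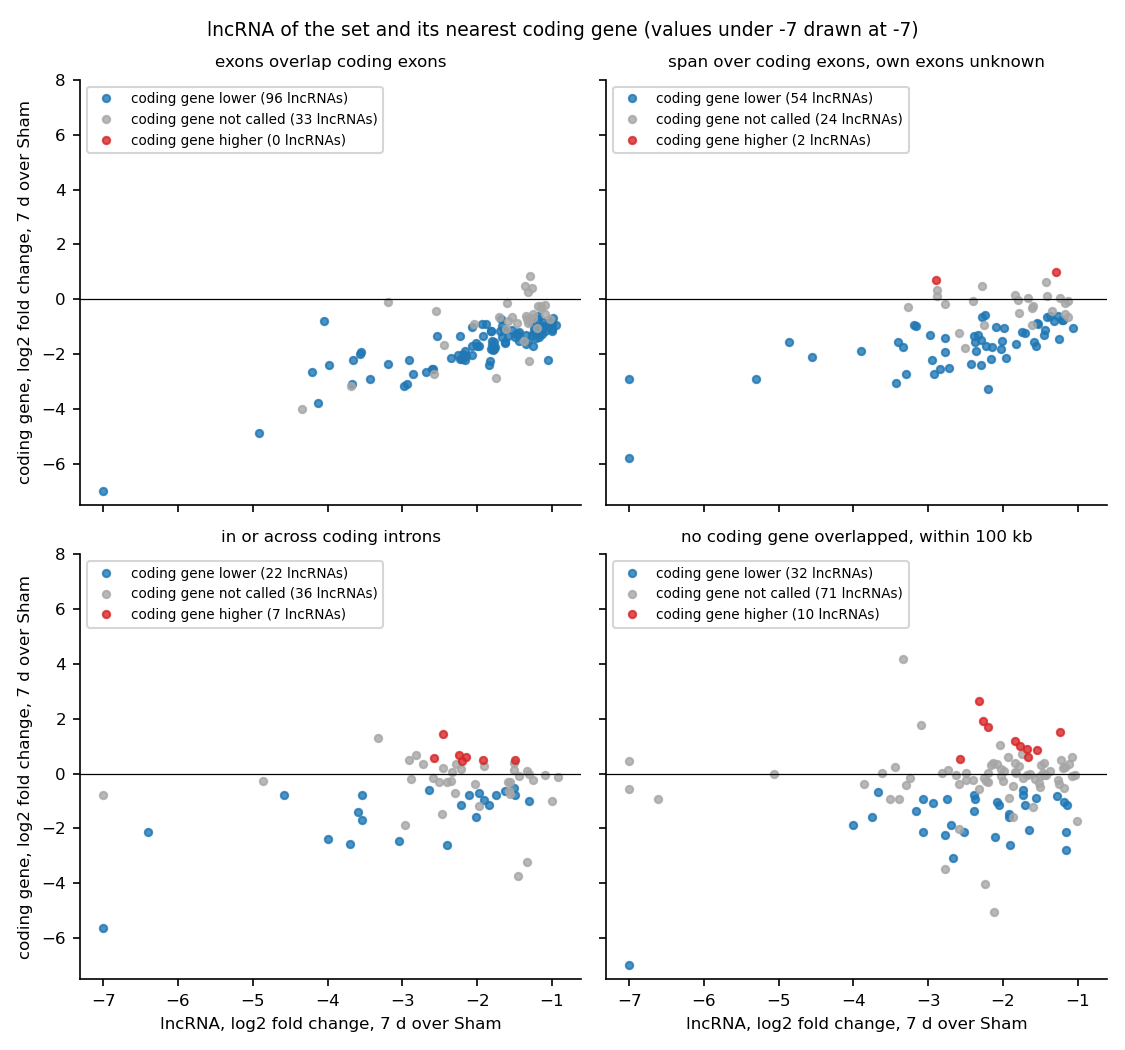
Log2 fold change of 7D over Sham for each lncRNA (horizontal) and for its nearest coding gene (vertical), in 4 panels by position. Points are lncRNAs, blue or red where the coding gene was called lower or higher at an adjusted p under 0.05, and most points in the panel of overlapping exons are blue.

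Pairs with overlapping exons included transporters and receptors of mature astrocytes. Slc6a9 itself had 33.2, 24.4 and 31.6 CPM in 7D cells, against 229, 273 and 207 CPM in Sham cells (log2 change -2.92 ± 0.20, SE, adjusted p 2.24e-08). Gpc5 had 2.84, 1.36 and 3.14 CPM in 7D cells, against 60.8, 88.5 and 84.2 CPM in Sham cells (log2 change -4.90 ± 0.31, adjusted p 5.93e-09), close to the change of Gm20713 (-4.92). Lgi1, a secreted protein of synapses, is the nearest coding gene of 3 members, of which Gm42723 had 7.57, 6.52 and 5.02 CPM in 7D cells and 41.2, 57.3 and 47.8 CPM in Sham cells. Lgi1 had 45.7, 37.6 and 36.2 CPM in 7D cells and 263, 314 and 258 CPM in Sham cells. Further pairs of this kind were G630022F23Rik with Fgfr3 (a growth factor receptor of astrocytes, log2 change -2.41 ± 0.18), Gm13872 with Slc1a2 (the glutamate transporter GLT-1, -2.08 ± 0.22), Gm12224 with Acsl6 (a fatty acyl-CoA synthetase, -2.22 ± 0.18), D030047H15Rik with Ttyh1 (a membrane protein of the tweety family, -1.52 ± 0.17) and A330033J07Rik with Id4 (an inhibitor of differentiation, -1.19 ± 0.27); all 5 coding genes were called lower.

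The library kit keeps the strand of the RNA, but whether counting used it is not given in the sources used here, so reads of a lncRNA and of a gene on the other strand cannot be told apart. Levels show how close some pairs are. Gm45774 had 215, 145 and 144 CPM in 7D cells and 584, 257 and 379 CPM in Sham cells, and Mt2, the metallothionein on the other strand, had 227, 152 and 151 CPM in 7D cells and 616, 262 and 383 CPM in Sham cells. Jund had 332, 350.2 and 422 CPM in 7D cells and 970.3, 872 and 1182 CPM in Sham cells, beside the values of Gm11175 above. Over 130 members with overlapping exons and a coding gene above 0, the Sham CPM of the lncRNA was 20.6% of that of the coding gene in the median, without scaling to length (quartiles 12.7% and 44.7%).

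The next pairs do not overlap by exons. Sparcl1 had 961, 882 and 792 CPM in 7D cells, against 2394, 2565 and 2357 CPM in Sham cells (log2 change -1.41 ± 0.16, adjusted p 7.33e-06), while the intronic Gm26703 changed by -3.60 on the log2 scale. BC006965 starts 248 bases from Sox9, the transcription factor that maintains astrocyte identity, and runs the other way. It had 1.89, 1.74 and 0.818 CPM in 7D cells and 4.36, 6.34 and 3.95 CPM in Sham cells. Sox9 had 83.7, 63.2 and 54.4 CPM in 7D cells and 427, 145 and 274 CPM in Sham cells (log2 change -2.05 ± 0.50, adjusted p 0.0237). Gm43231 starts 124 bases from Msi1, an RNA-binding protein of neural stem cells and glia, which had 40.5, 35.0 and 33.6 CPM in 7D cells and 95.1, 102 and 94.3 CPM in Sham cells (log2 change -1.35 ± 0.16, adjusted p 1.03e-05). Gm17501 starts 331 bases from Ccn1, a matricellular protein, which had 199, 137 and 169 CPM in 7D cells and 1198, 495 and 1453 CPM in Sham cells (log2 change -2.59 ± 0.37, adjusted p 6.78e-04). In each of these coding genes the highest 7D library lay below the lowest Sham library. Pantr2 and Gm30731 lie next to the neural transcription factors Pou3f3 and Pou3f2, and both coding genes were called lower at log2 changes of -0.94 ± 0.15 and -0.94 ± 0.19.

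Some neighbours went the other way. Abca1, the cholesterol exporter of astrocytes, had 912, 1036 and 735 CPM in 7D cells, against 242, 314 and 189 CPM in Sham cells (log2 change 1.92 ± 0.20, adjusted p 2.26e-06). The member nearest to it, 4930412L05Rik, had 2.02, 1.57 and 0.772 CPM in 7D cells and 3.80, 7.00 and 11.4 CPM in Sham cells. Bcas1, a gene of maturing oligodendrocytes, rose next to Gm34542 (log2 change 1.70 ± 0.18, adjusted p 3.49e-06). Mef2c, a transcription factor abundant in microglia, rose beside C130071C03Rik, to 57.3, 64.3 and 34.1 CPM in 7D cells, against 26.5, 21.3 and 7.57 CPM in Sham cells (log2 change 1.52 ± 0.40, adjusted p 0.0218), and microglia and macrophage markers were higher at 7D as given above. The part of those markers in the rise of Mef2c was not tested. Adamts9, a matrix protease, rose around 9530026P05Rik (log2 change 1.43 ± 0.23, adjusted p 2.02e-04).

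**Figure D4:**
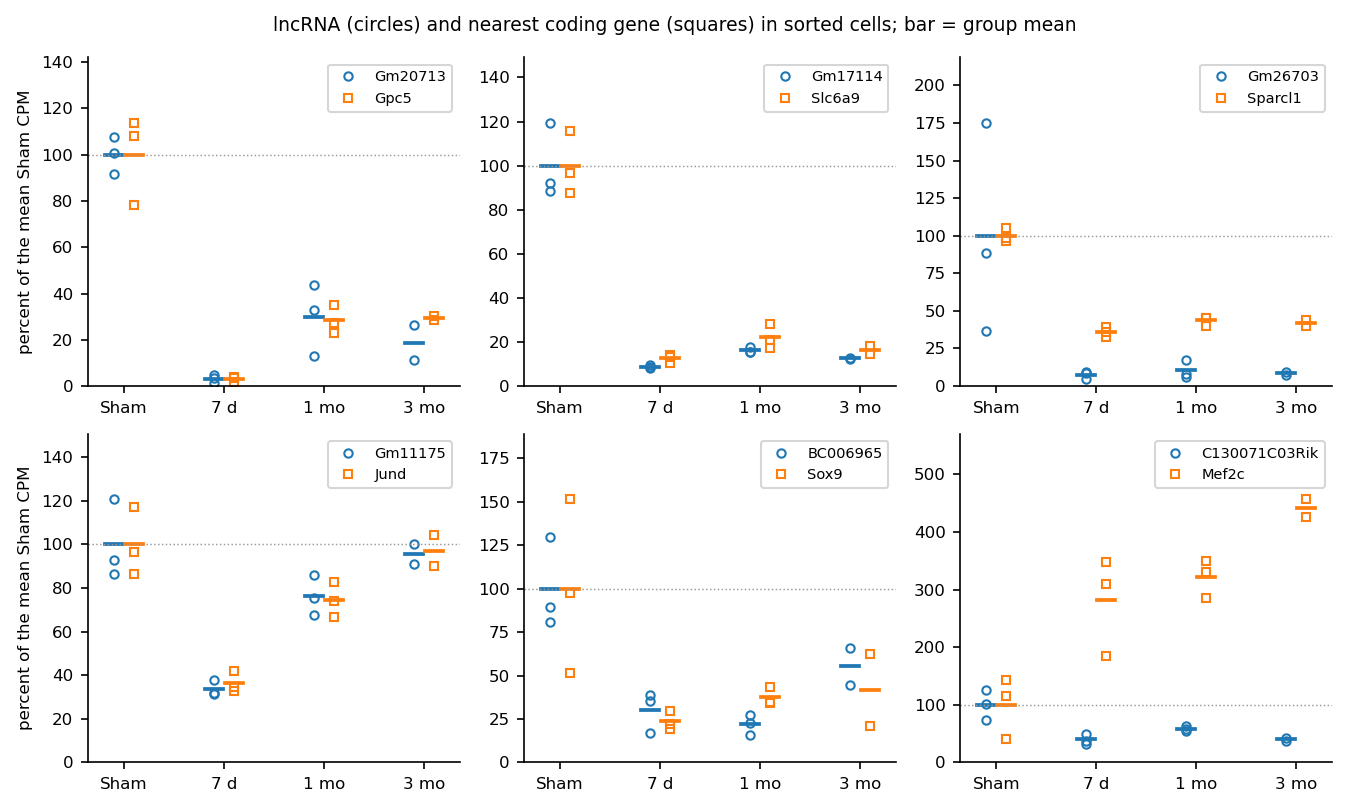
CPM as a percentage of the mean Sham CPM (vertical, linear from 0) for 6 lncRNAs of the set (circles) and their nearest coding genes (squares) in sorted Sham, 7D, 1M and 3M libraries, with bars at group means. Gm20713 and Gpc5 both lie near 0 at 7D, Gm11175 and Jund are both higher at 1M and 3M than at 7D, and Mef2c is higher at 7D where C130071C03Rik is lower.

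At 1M, the neighbours were split by the pattern of their members. Of 170 coding genes next to members that stayed below Sham at 1M without rising above 7D, 87 were called lower at 1M than in Sham (51.2%). Of 70 next to members that rose above 7D and reached Sham values, 11 were (15.7%). Of 29 next to members that rose above 7D but stayed below Sham, 14 were (48.3%), and of 107 next to members whose 1M libraries overlapped both groups, 27 were (25.2%), where 7.85% of all coding genes were. The difference between these shares was not tested, and the groups of members were chosen on the same libraries. Overlapping pairs may also share reads, as given above.

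RefSeq promoters (from 250 bases before to 50 after a start, GRCm38.p6) were found for 198 members, with 259 starts in all. A RefSeq start can differ from the start by which a member was placed, and 210 of the 259 lay within 1 kb of it. The promoters of the miR-9 host C130071C03Rik, the miR-101a host E130102H24Rik and the Pou3f3 neighbour Pantr2 are shown because these loci recur above and their RefSeq starts lie 0, 487 and 0 bases from the member's own start. Capitals mark the motifs listed in the next paragraph other than the E-box, found on either strand.
C130071C03Rik: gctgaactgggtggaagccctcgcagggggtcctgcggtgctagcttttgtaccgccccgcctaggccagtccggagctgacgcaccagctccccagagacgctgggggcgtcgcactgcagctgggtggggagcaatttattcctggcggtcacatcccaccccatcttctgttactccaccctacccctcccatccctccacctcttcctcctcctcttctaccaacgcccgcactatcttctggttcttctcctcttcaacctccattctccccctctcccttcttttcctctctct
E130102H24Rik: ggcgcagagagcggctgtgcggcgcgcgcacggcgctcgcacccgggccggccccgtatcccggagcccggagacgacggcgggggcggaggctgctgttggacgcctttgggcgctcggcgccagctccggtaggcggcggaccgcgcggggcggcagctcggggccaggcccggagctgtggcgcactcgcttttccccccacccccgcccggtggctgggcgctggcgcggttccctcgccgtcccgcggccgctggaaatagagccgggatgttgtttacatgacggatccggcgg
Pantr2: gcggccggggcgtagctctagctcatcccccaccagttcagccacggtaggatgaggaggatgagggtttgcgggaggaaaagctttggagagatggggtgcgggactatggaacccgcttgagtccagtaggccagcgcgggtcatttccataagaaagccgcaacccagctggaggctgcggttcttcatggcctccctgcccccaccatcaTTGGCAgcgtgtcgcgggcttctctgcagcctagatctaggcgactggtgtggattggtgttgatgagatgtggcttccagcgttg
They lie at chr13:83721131-83721430 (+), chr4:101356199-101356498 (-) and chr1:42713405-42713704 (-) in that order. The promoter of Pantr2 holds TTGGCA, and no other motif of the list but the E-box was found in the 3 windows. GC content was 76.7% in the promoter of E130102H24Rik and 60.7% in that of C130071C03Rik.

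The motifs that follow were searched on both strands, and a match is a description of letters only. The AP-1 motif TGANTCA was in 15 of 259 member promoters (5.79%) and 7.81% of all promoters. The NFI motif TTGGCA was in 47 of 259 member promoters (18.1%) and 14.1% of all promoters. The SOX motifs ACAATGG and AACAAAG were in 19 of 259 member promoters (7.34%) and 9.22% of all promoters. The STAT motif TTCNNNGAA was in 17 of 259 member promoters (6.56%) and 8.30% of all promoters, and the E-box CANNTG in 197 of 259 member promoters (76.1%) and 72.3% of all promoters. TGACGTCA, bound by CREB factors, was in 3 of 259 member promoters (1.16%) and 1.79% of all promoters, and AGGTCA, a motif of nuclear receptors such as ROR, in 35 of 259 member promoters (13.5%) and 16.3% of all promoters. TATAAA was in 26 of 259 member promoters (10.04%) and 13.6% of all promoters, and the RFX motif of ciliary genes was in 0 of 259 member promoters and 0.457% of all. Median GC content was 52.7% in both.

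The comparison of 3M with 1M sorted cells shares no library with the rule, but the filter of the fit across 4 groups let members through on their Sham level. Between 3M and 1M sorted cells, edgeR called 0 of 463 members higher and 0 lower, with 13 higher and 18 lower at an unadjusted p under 0.05, and 0% of lncRNA rows were called higher and 0.025% lower. DESeq2 called 3 members lower, Gm35614, Gm39392 and 8430415O14Rik, which are named after their values were seen. Over all 24286 genes, DESeq2 called 249 higher and 401 lower. 8430415O14Rik had 0.495 and 0 CPM in 3M sorted cells, against 1.23, 3.84 and 2.65 CPM in 1M sorted cells (DESeq2 log2 change -3.23 ± 0.92, SE, adjusted p 0.0246). With the 1M and 3M groups fitted alone, 443 members passed the filter, and edgeR called 0 higher and 1 lower, with 10 in each direction at an unadjusted p under 0.05. The median log2 change of the members was 0.06, beside 0.00 over all genes. In tissue, 364 members passed the filter, and 8 were called higher and 12 lower at 3M than at 1M, which is 2.198% and 3.297%, beside 2.52% and 3.94% of all lncRNA rows. Both shares were near those of all lncRNA rows.

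Single members were called in tissue. Strands cannot be told apart in these counts, as given above. Rows antisense to a coding gene, such as Gm45774 and Gm14703, may therefore hold reads of that gene. Gm17167 had 6.84, 6.63 and 7.73 CPM in 3M tissue, against 1.297, 1.26 and 0.980 CPM in 1M tissue (log2 change 2.55 ± 0.17, SE, adjusted p 0.00151). Its groups were far apart. Gm14703, antisense to the synaptic vesicle gene Syp, had 308, 378 and 350.3 CPM in 3M tissue and 244, 216 and 266 CPM in 1M tissue (log2 change 0.48 ± 0.10, adjusted p 0.0223), and 6 of 11 neuronal markers tested were higher at 3M. In the same contrast 10 of 12 microglia and macrophage markers were lower, with sums of 2117 to 3076 CPM in 3M tissue and 5279 to 7231 CPM in 1M tissue. Of 21 immediate early genes 8 were lower, with sums of 463 to 604 CPM in 3M tissue and 708 to 734 CPM in 1M tissue, as were 4 of 10 oligodendrocyte precursor markers and 3 of 15 astrocyte markers. Their part in the changes of members was not tested. A230004M16Rik, AC125351.1 and Gm31399 were also higher, at log2 changes of 0.71 ± 0.12, 0.62 ± 0.13 and 0.70 ± 0.16. Gm45774 had 350.4, 381 and 397 CPM in 3M tissue, against 895, 856 and 675 CPM in 1M tissue (log2 change -1.14 ± 0.11, adjusted p 0.00258), and Mt2 had 355, 386 and 404 CPM in 3M tissue and 903, 864 and 681 CPM in 1M tissue. Gm20444 (-0.87 ± 0.11), Gm15701 (-0.77 ± 0.14), Gm15852 (-0.55 ± 0.07) and Snhg20 (-0.46 ± 0.07) were lower as well. Gm17167, Gm45774, Gm20444 and Gm15852 passed the threshold with any single replicate left out, and the other 6 named here did not pass without Tissue 1M replicate 1. Over all 10 alternative settings, left-out replicates included, Gm31399 did not pass in 7 and Snhg20 in 2. A230004M16Rik, AC125351.1, Gm14703 and Gm15701 each did not pass in 4. The number called in tissue ran from 4 to 45 when single replicates were left out, and it was 45 without Tissue 3M replicate 1 and 4 without Tissue 1M replicate 1. The 45 were 27 higher and 18 lower of 368 members, where 2876 and 3092 of 19629 genes were called. The 4 were 1 higher and 3 lower of 382 members, where 73 and 256 of 20407 genes were called.

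Sorted cells and tissue were also compared at the same time after injury. At 1M, 451 members passed the filter of the joint fit, and 110 were called higher (24.4%) and 76 lower (16.9%) in sorted cells than in tissue, beside 15% and 16.6% of lncRNA rows. At 3M, 109 were called higher (24.2%, beside 16.1% of lncRNA rows) and 83 lower (18.4%, beside 17.9%). Members had to reach a level in sorted Sham cells, and the lncRNA rows beside them did not. That choice favours calls on the sorted side, so nothing is read from the larger shares there. The difference between preparations in the change of 3M over 1M was called for 7 members in each direction (beside 2.43% of lncRNA rows higher and 2.68% lower). The preparations differ in dissociation and sorting as well as in cells, and these cannot be told apart. All 21 immediate early genes and all 10 oligodendrocyte precursor markers were higher in sorted 1M cells, and 14 of 15 astrocyte markers and all 10 oligodendrocyte markers were lower.

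Members higher in sorted cells included the following transcripts. 1700086L19Rik had 48.0, 45.0 and 49.0 CPM in 1M sorted cells, against 2.92, 2.51 and 2.40 CPM in 1M tissue (log2 change 4.05 ± 0.21, SE, adjusted p 2.36e-08). Gm41305, in an intron of Ncald, had 22.0, 18.5 and 14.9 CPM in 1M sorted cells and 0.908, 0.857 and 0.926 CPM in 1M tissue. Gm37264 and Gm31080 were higher in 1M sorted cells by 2.95 ± 0.26 and 2.87 ± 0.26 on the log2 scale, and Gm11175 by 1.78 ± 0.13. The row of Gm11175 may hold reads of Jund, as given above. The miR-9 host C130071C03Rik had 58.5, 66.5 and 62.6 CPM in 1M sorted cells and 27.2, 24.0 and 26.4 CPM in 1M tissue (log2 change 1.14 ± 0.14, adjusted p 2.51e-05). Mir99ahg was higher too, at 20.96, 12.2 and 17.9 CPM in 1M sorted cells and 8.10, 9.77 and 8.22 CPM in 1M tissue (log2 change 0.84 ± 0.25, adjusted p 0.0158). Gm3764 did not pass the threshold at 1M (log2 change 0.13 ± 0.09, adjusted p 0.226).

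Some members were far lower in sorted cells. Gm14703 had 20.8, 23.4 and 19.8 CPM in 1M sorted cells, against 244, 216 and 266 CPM in 1M tissue (log2 change -3.63 ± 0.15, adjusted p 4.29e-09). Mir124-2hg had 5.77, 7.13 and 10.7 CPM in 1M sorted cells and 25.7, 24.3 and 26.2 CPM in 1M tissue (log2 change -1.83 ± 0.35, adjusted p 9.01e-04). The 12 neuronal markers summed to 228 to 266 CPM in 1M sorted cells, and the 11 of them found in tissue summed to 4822 to 5956 CPM in 1M tissue. Their part in these differences was not tested. Gm38336, 9530082P21Rik, Gm20444 and Gm15852 were lower in 1M sorted cells by log2 changes of -2.60 ± 0.10, -1.94 ± 0.10, -2.27 ± 0.16 and -2.52 ± 0.18. Gm6145 had 7.66, 7.05 and 12.7 CPM in 1M sorted cells and 35.6, 35.5 and 33.8 CPM in 1M tissue (log2 change -2.08 ± 0.22, adjusted p 8.99e-06). Gm17114 had 22.3, 19.5 and 19.7 CPM in 1M sorted cells and 53.7, 49.0 and 55.9 CPM in 1M tissue (log2 change -1.50 ± 0.11, adjusted p 4.22e-07). In the same contrast 14 of 15 astrocyte markers were lower in sorted cells, as given above, and their part was not tested.

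**Figure D5:**
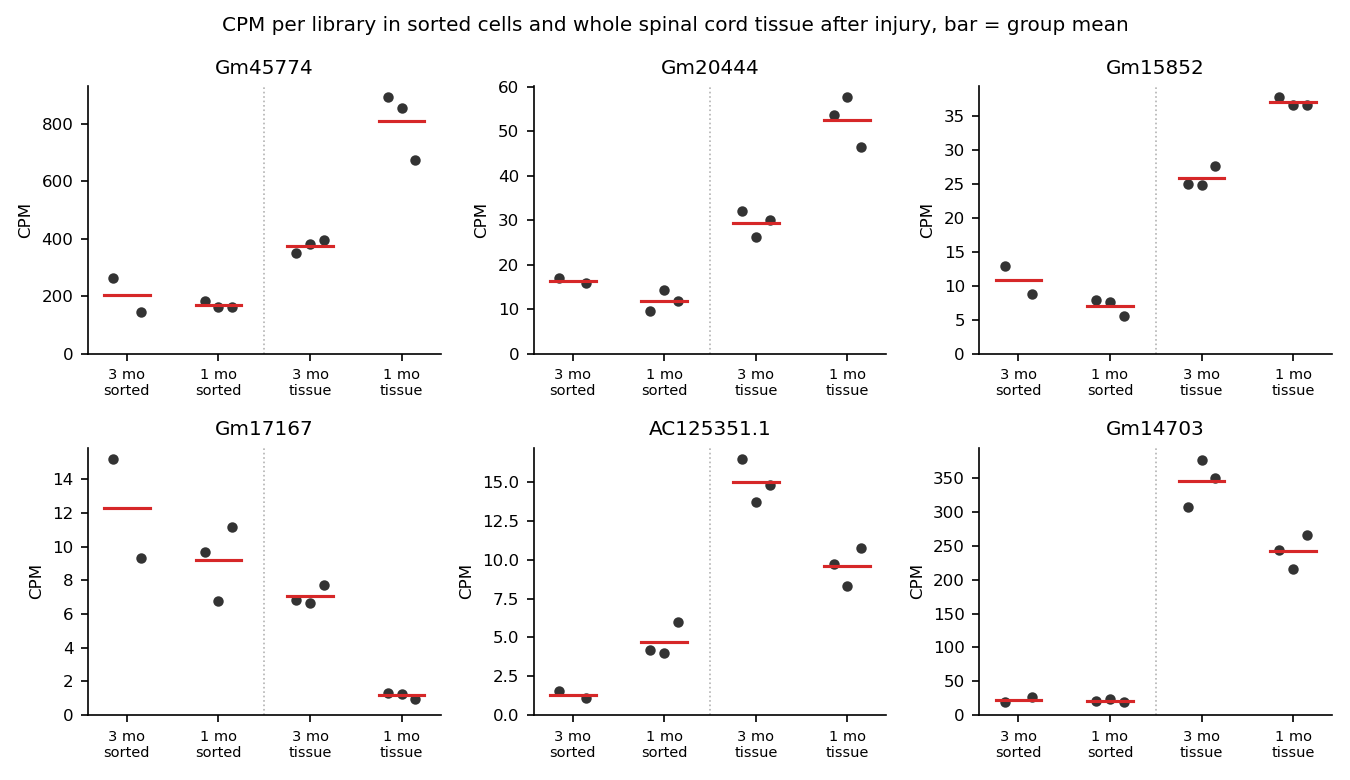
CPM (linear axis from 0) of 6 lncRNAs of the set in each library of 3M and 1M sorted cells and of 3M and 1M tissue, with bars at group means. Gm45774, Gm20444 and Gm15852 are lower at 3M than at 1M in tissue, and Gm17167, AC125351.1 and Gm14703 are higher.

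In cultured astrocytes the targeted genes were checked first. Zeb2os had 2.94 and 4.10 CPM in the libraries labelled Zeb2os knockdown, against 5.89 and 4.21 CPM in their controls (log2 change -0.36 ± 0.37, SE, adjusted p 0.745), so the label did not show as a call. Zeb2 had 25.2 and 16.2 CPM in Zeb2 knockdown, against 138 and 130.1 CPM in its controls (log2 change -2.83 ± 0.32, adjusted p 0.999); even that difference did not pass the adjusted threshold. Of the members, 322 passed the filter in the Zeb2os cultures and 222 in the Zeb2 cultures. EdgeR called 0 members in either experiment, and it called 0% of lncRNA rows in both. At an unadjusted p under 0.05, 7 members were higher and 23 lower in the libraries labelled Zeb2os knockdown, and 5 were higher and 4 lower in Zeb2 knockdown. DESeq2 called 1 member in the Zeb2os cultures, where it called 265 of 20741 genes higher and 288 lower. After Zeb2 knockdown DESeq2 called 0 members, and of 17600 genes it called 16 higher and 16 lower. The member called by DESeq2 in the Zeb2os cultures was AV356131, named after its values were seen, with 8.88 and 6.13 CPM in the libraries labelled Zeb2os knockdown, against 3.44 and 2.45 CPM in their controls (log2 change 1.52 ± 0.39, SE, adjusted p 0.00729). The counts at an unadjusted p were not set beside a share over all lncRNA rows, so nothing is read from them. Leaving out a culture library leaves a lone library in its group, so such fits are not read here. The summed CPM of the members was 1708 and 1775 in the libraries labelled Zeb2os knockdown and 2078 and 1967 in their controls, and 1542 and 1882 in Zeb2 knockdown and 1506 and 1481 in its controls. The 15 astrocyte markers summed to 726 and 720.4 CPM in the libraries labelled Zeb2os knockdown, against 1513 and 1839 CPM in their controls, and 1 of the 15 was called lower. The 25 genes of mature astrocyte function summed to 780.2 and 761 CPM in the libraries labelled Zeb2os knockdown, against 1282 and 1642 CPM in their controls. The 10 fibroblast and mural markers summed to 11692 and 11774 CPM in these knockdown libraries and 10807 and 11399 CPM in their controls. In Zeb2 knockdown those 10 summed to 5846 and 6985 CPM, against 14209 and 8011 CPM in its controls. The 15 astrocyte markers summed to 1475 and 1258 CPM in Zeb2 knockdown and 1424 and 912 CPM in its controls. Their part in the members' sums was not tested.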

How the data were processed

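RNA of sorted cells, tissue and cultures was sequenced with a kit that marks the strand, per the labels' protocols. The authors deposited raw read counts per gene in 4 tables, unit counts, with a biotype for each row. The tools named in the submitters' processing notes are TopHat2 2.1.0, Cufflinks 2.2.1, FastQC and DESeq2, with the build mm10. Which program counted reads, with which annotation and whether by strand is not given in the sources used here. Members, gene lists and comparisons were chosen with earlier results of these data known.

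Here, CPM used the column sums (Python 3.11.15, pandas 2.3.3). Each table was fitted with edgeR 4.0.16 in R 4.3.3: TMM scaling, filterByExpr at a minimum count of 10, and the quasi-likelihood test across all genes with Benjamini-Hochberg adjustment (threshold 0.05). The sorted fit held all 4 groups, and a joint fit of sorted and tissue libraries at 1M and 3M gave sorted against tissue and the difference of their time changes. DESeq2 1.42.0 was an alternative, and the code was checked on simulated counts. Samples were grouped by the labels. Values after ± are standard errors of log2 fold changes.

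Positions came from GENCODE M21 for 264 members with Ensembl IDs and from RefSeq GRCm38.p6 for 173 with Entrez IDs, and 26 were not placed. Among the symbols, 2 stand on 2 rows each. Named members were the 10 with the highest Sham CPM per kb of exon, the 10 with the largest ratio and up to 5 in each direction with the smallest p in each comparison; microRNA hosts and coding neighbours were named for their annotation after their values were seen. Other alternatives were RLE scaling, no filter, a replicate block, each replicate left out, the compared groups alone and members not known to overlap a coding gene. Total counts per library set the precision, and low CPM values rest on few reads.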

Additional observations from a re-analysis of the deposited data

Results flagged for a closer look

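The change of 3M over 1M was compared between sorted cells and tissue in the joint fit (log2 change in sorted cells minus that in tissue, edgeR's quasi-likelihood test). This comparison was chosen after seeing the data. It called 14 of 451 members, 7 higher and 7 lower (1.55% each), beside 2.43% and 2.68% of lncRNA rows. In the same contrast 12 of 12 microglia and macrophage markers were called higher (median log2 difference 2.22), as were 9 of 21 immediate early genes and 5 of 10 oligodendrocyte markers, and their part was not tested. In sorted cells this rests on 2 libraries at 3M, and the number called was higher when either was left out. Such fits leave a lone library at 3M, so nothing is read from them.

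Members whose change was higher in sorted cells than in tissue included antisense transcripts. Their rows may hold reads of the coding gene on the other strand, as given above for Gm45774 and Mt2. Gm45774 had 264 and 144 CPM in 3M and 185, 162 and 162 CPM in 1M sorted cells, with 350.4, 381 and 397 CPM in 3M and 895, 856 and 675 CPM in 1M tissue, a difference of 1.38 ± 0.26 (SE, adjusted p 0.00567). Gm20444 had 17.0 and 15.8 CPM in 3M and 9.55, 14.3 and 11.9 CPM in 1M sorted cells, with 32.0, 26.3 and 30.0 CPM in 3M and 53.6, 57.8 and 46.4 CPM in 1M tissue, a difference of 1.31 ± 0.23 (adjusted p 0.00372). The others were Gm15701 at 2.23 ± 0.46, Gm42970 at 2.21 ± 0.54, Gm26532 at 1.40 ± 0.33, Gm15852 at 1.16 ± 0.25 and Gm11175 at 0.78 ± 0.19.

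Those with a lower change in sorted cells included a host of miR-9. Gm3764 had 91.6 and 104 CPM in 3M and 123, 116 and 128 CPM in 1M sorted cells, with 101, 121 and 113 CPM in 3M and 97.9, 104 and 104 CPM in 1M tissue, a difference of -0.43 ± 0.13 (adjusted p 0.0487). Gm17167 had 15.2 and 9.35 CPM in 3M and 9.66, 6.79 and 11.2 CPM in 1M sorted cells, with 6.84, 6.63 and 7.73 CPM in 3M and 1.30, 1.26 and 0.980 CPM in 1M tissue, a difference of -2.15 ± 0.40 (adjusted p 0.00538). The others were LOC108167936 at -3.13 ± 0.84, AC125351.1 at -2.46 ± 0.35, Mir124-2hg at -1.79 ± 0.53, 1700086L19Rik at -1.10 ± 0.29 and 4933431E20Rik at -0.57 ± 0.15. LOC108167936 did not pass the threshold without any one of the 6 tissue replicates, Gm3764 with RLE scaling, with no filter or without any of 9 single libraries, Mir124-2hg without any of 8, 4933431E20Rik without any of 5, 1700086L19Rik without any of 4, Gm11175 and Gm42970 without any of 3, and Gm26532 without SCI 3M replicate 3 or Tissue 1M replicate 1.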

How the results depend on the processing

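Settings other than single replicates left out moved these counts by over 1.5 times. The rule found 254 lncRNAs at a Sham mean of at least 5 CPM, and 182 members have no exon known to lie in the span of a coding gene, 26 of them because they have no position. With those 182 alone, called members were 66 (7D vs Sham), 35 (1M vs Sham), 23 (3M vs Sham), 6 (1M vs 7D), 8 (3M vs 7D), 5 (tissue), 63 and 72 (sorted vs tissue at 1M and 3M) and 7 (interaction); separated members were 106 and 113 (1M and 3M below Sham) and 38 and 45 (1M and 3M above 7D); neighbours that do not overlap the member gave 39 calls. These are smaller sets by construction. DESeq2 called 276, 154 and 120 (7D, 1M and 3M vs Sham), 43 and 48 (1M and 3M vs 7D), 3 (sorted 3M vs 1M), 1 (Zeb2os) and 26 (interaction). Without a filter the counts were 34 and 40 (1M and 3M vs 7D), 1 (sorted 3M vs 1M), 3 (Zeb2os) and 1 (Zeb2). The compared groups alone gave 15 (3M vs Sham), 63 (1M vs 7D) and 1 (sorted 3M vs 1M). The cause was not tested.

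As deviations from group means, same-numbered libraries correlated at -0.04 to 0.08 in sorted cells and at -0.19, -0.27 and -0.01 in tissue. These values give no sign of pairing by number, and a shared batch was not tested. The 2 Zeb2os pairs, at -0.03, and the 2 Zeb2 pairs, at 0.39, are too few to decide. With a replicate block the counts were 17 (3M vs 7D), 4 (tissue) and 3 (Zeb2os), and 155, 90, 55, 15, 0 and 0 for 7D vs Sham, 1M vs Sham, 3M vs Sham, 1M vs 7D, sorted 3M vs 1M and Zeb2.

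With single replicates left out, ranges were 441 to 965 (rule), 99 to 190 (7D vs Sham), 49 to 92 (1M vs Sham), 18 to 89 (3M vs Sham, 18 without SCI 3M replicate 3), 3 to 10 (1M vs 7D), 9 to 19 (3M vs 7D), 0 to 2 (sorted 3M vs 1M), 4 to 45 (tissue), 0 to 31 (Zeb2os), 0 to 1 (Zeb2), 146 to 197 and 150 to 215 (sorted vs tissue at 1M and 3M), 8 to 78 (interaction), 260 to 348 and 290 to 370 (1M and 3M below Sham), and 133 to 179 and 153 to 301 (1M and 3M above 7D). Leaving out a 3M sorted library or a culture library leaves a lone library in its group, and nothing is read from those counts. Of 44 results for named members, 30 kept direction and side of the threshold under every alternative and none reversed. All 44 were followed because they had been called, which favours keeping direction, so nothing is read from these numbers. Depth limits members near 1 CPM, and 2 libraries a group limit 3M and the cultures.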
